A study of Homo sapiens with 9 samples.

Results

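The longest protein-coding genes expressed in HCT116 cells, a human colon carcinoma line, were followed through knockdown of RNF40, knockdown of transglutaminase 2 and a control siRNA. A gene was taken as a member where its annotated span in the deposited table was at least 500 kb on a primary chromosome and its normalized read count averaged at least 10 over the 9 libraries. Of 304 protein-coding genes of that length, 153 met the level and 151 did not, 59 of which had no read in any library. The 153 genes stand among 17663 genes of any kind, 13678 of them protein-coding, that reached the same level.

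The groups were siRNF40, siTG2 and siControl, with 3 libraries each, all from the same wild-type line 48 h after lipid transfection of the siRNA. Polyadenylated RNA was sequenced. Nothing in the labels states whether the replicates were separate cultures. The p-values may then reflect technical spread alone. Each target had 1 siRNA label, so loss of the target and other effects of its siRNA cannot be told apart.

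Genes of this size consist almost wholly of introns, so the polymerase travels far to make a short message. Their transcription is known to lean on elongation factors, on topoisomerases that relieve DNA twisting, and on U1 snRNP, which holds back early polyadenylation within introns. Many encode cell adhesion, synaptic and signalling proteins of neurons, and several span common fragile sites, regions that break when replication is slowed. RNF40 and RNF20 together ubiquitinate histone H2B along transcribed genes, a mark that travels with the elongating polymerase. Transglutaminase 2, encoded by TGM2, joins glutamine side chains to lysines or to small amines.

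The siRNA targets were low in their own libraries. RNF40 averaged 520 ± 20.6 normalized counts in siRNF40 and 2784 ± 219 in siControl (SD, n = 3 each), or 18.7% of siControl. TGM2 averaged 112 ± 48.6 in siTG2 and 605 ± 84.4 in siControl, or 18.5%. In both cases the libraries did not overlap, and the two-sided exact permutation p was 0.1, the smallest that 3 against 3 allows. Each target also stood apart from siControl in the other knockdown. RNF40 averaged 2304 ± 180 in siTG2, below every siControl library (log2 fold change -0.27, adjusted p = 0.019 in limma), a call that ended without siTG2 replicate 1 (-0.26), siTG2 replicate 3 (-0.23), siControl replicate 1 (-0.22) or siControl replicate 2 (-0.27), under quantile normalization (-0.15) and with the libraries scaled to equal totals (-0.13). TGM2 averaged 877 ± 74.2 in siRNF40, above every siControl library without passing the test (0.54, adjusted p = 0.063). Libraries held 29161285 to 35743918 reads in genes, and 1 read was worth 0.88 to 1.1 normalized counts. Of 11 colon epithelial markers, 6 were expressed (CDH1, CDX2, EPCAM, KRT8, KRT18 and KRT19), while VIL1, CDX1, LGR5, ASCL2 and CEACAM5 averaged under 10. Their summed level was 129436 to 156206 in siRNF40, 77902 to 89028 in siTG2 and 87275 to 95737 in siControl. Markers of other cell types were partly present. Of 7 fibroblast markers, COL1A1 (mean 1134) and PDGFRB (31.1) reached a mean of 10 and DCN and LUM were at 0 in all libraries. Of 8 neuron and glia markers, SYT1 (4075), MBP (2421), SLC17A7 (173), RBFOX3 (29.8) and GFAP (13) reached it, SYT1 and RBFOX3 being long genes themselves, and OLIG2 was at 0.

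The members had a median span of 659 kb, 21 of them reached 1 Mb or more, and they lay on 22 chromosomes, with 17 on chromosome 3 and 15 on chromosome 7. The longest was CNTNAP2, a neuronal adhesion protein gene of 2305 kb, followed by the scaffold gene DLG2 (2173 kb) and the fragile-site gene MACROD2 (2058 kb). In GENCODE 29, which annotates GRCh38 and not the build of the deposited table, 152 were found by gene ID. The longest intron of the coding transcript had a median of 165115 bases in members and 8979 bases in expressed protein-coding genes, and the transcript covered a median of 0.753% and 9.69% of the gene span. Members had a median of 18 exons and a 3′ UTR of 1538 bases, beside 9 exons and 940 bases in protein-coding genes. The gene span is not always that of the message. A coding transcript of 500 kb or more was found for 108 members, and that of AVL9, EGLN3, EIF2B5, FIP1L1, RGS6, UPK3B and ZBTB20 was under 100 kb. DLEU1, protein-coding in the deposited table, is a long noncoding RNA gene in GENCODE 29.

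Long genes were weakly expressed for their exon length. Their median level per kb of exon was 28.3 normalized counts in siRNF40, 29.8 in siTG2 and 27 in siControl, whereas protein-coding genes had 160 in siRNF40, 163 in siTG2 and 167 in siControl. Member averages ran from 10.2 to 8390 normalized counts with a median of 225. LRBA, a vesicle traffic protein with a BEACH domain, had the highest count. Per kb of exon the leading member in siControl was SYT1, the synaptotagmin that senses calcium in vesicle fusion, with 334 in siRNF40, 613 in siTG2 and 935 in siControl. ADK, adenosine kinase, followed with 811 in siRNF40, 624 in siTG2 and 864 in siControl.

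At the edges of the rule, the shortest members were KCNAB1 and SPOCK3 (501 kb) and AKAP6 (502 kb), and the nearest genes left out were DIAPH3 (498 kb), CACNA2D1 and MBD5 (497 kb). By level, CNTNAP2 (10.2), PDE10A (11.5) and CTNNA3 (12) were just inside, and KCNMB2 (9.68) and ERBB4 (9.39) just outside. The level part of the rule used these same libraries. All 3 group means were at least 10 in 143 members. The mean was under 10 in siRNF40 for CACNA1C, CNTNAP2, CTNNA3, DCDC1, GRM8, MAPK10, PDE10A and SPOCK3, in siTG2 for MYO16, and in siControl for ALK, CACNA1C, CNTNAP2, MAPK10 and MYO16.

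In siRNF40 the long genes were more often lower than higher. Against siControl, 54 of the 153 members were called lower (35.3%) and 15 higher (9.8%), at an adjusted p under 0.05 in limma with Benjamini-Hochberg adjustment over all 17663 genes. Of all genes tested, 23.6% were called lower and 21.7% higher. Of protein-coding genes alone, the kind the members are, 28.3% were lower and 24.2% higher. The members' median log2 fold change was -0.18, beside 0.02 over all genes. Among the 54 lower members was CTNNA3, which had a mean under 10 over the siRNF40 and siTG2 libraries. It passed the level limit through siControl, so its lower call is partly set by the rule. Together the members took 0.295% to 0.334% of the reads in siRNF40, below the 0.374% to 0.416% in siControl, with no overlap, while the siTG2 libraries had 0.382% to 0.434%. In these bulk libraries, fewer cells that express a gene and less RNA per cell cannot be told apart.

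The lower calls were not particular to the 500 kb limit. Protein-coding genes of 100 to 500 kb were called lower in 39.7% of 2457 cases and higher in 13.2%, with a median of -0.20. Those of 10 to 100 kb were called lower in 29.3% and higher in 25%, with a median of -0.01, and those under 10 kb lower in 14.4% and higher in 32.2%, with a median of 0.17. Just below the limit, genes of 400 to 500 kb had a median of -0.37, and members of 1 Mb or more, with 6 lower (28.6%) and 1 higher (4.76%) of 21, also had -0.37. Within the members, Spearman's rho between span and log2 fold change was -0.1 across 153 genes, which are not independent replicates and share the libraries.

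**Figure D1:**
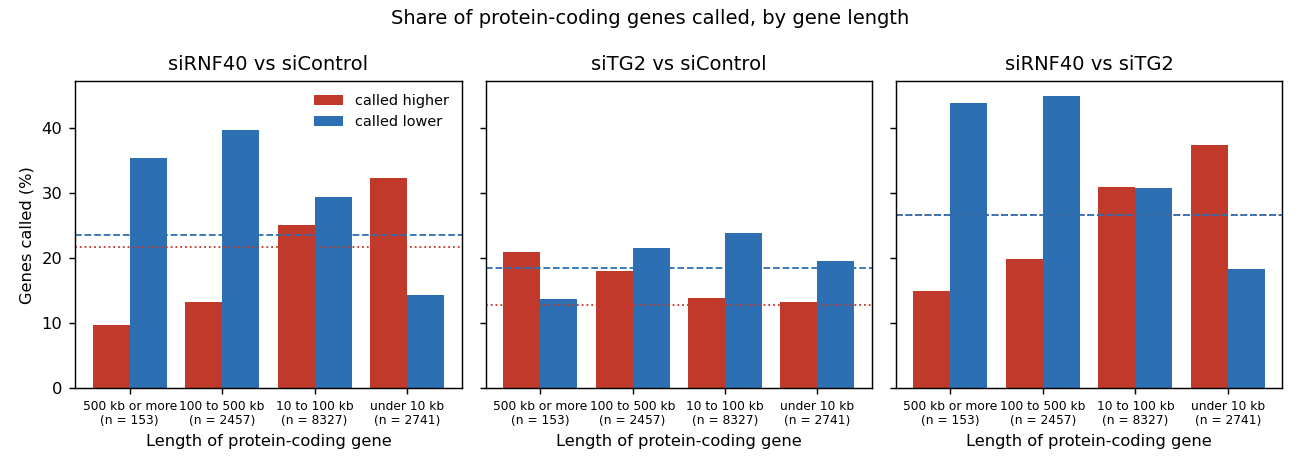
Percent of expressed protein-coding genes called higher (red bars) or lower (blue bars) by limma, for 4 classes of gene length and 3 contrasts, with the number of genes under each class. Lines mark the share of all 17663 genes called higher (dotted red) and lower (dashed blue): in siRNF40 against siControl, 35.3% of genes of 500 kb or more were lower, while in siTG2 20.9% were higher.

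Genes of vesicle traffic and secretion held the largest share of lower calls among the roles, with 10 of 15 members lower (66.7%) and 1 higher (6.67%), beside the 23.6% lower and 21.7% higher of all genes tested. The roles are small and no share was tested against the rest. SYT1 had 2209, 2330 and 1976 normalized counts in siRNF40, against 6031, 5740 and 6453 in siControl. Every siRNF40 library was below every siControl library, and the log2 fold change was -1.49 ± 0.078 (SE; adjusted p = 3.3e-11). ERC1, a scaffold that binds the small GTPase RAB6, had 1835, 1814 and 1358 counts in siRNF40, against 3135, 2729 and 3479 in siControl, without overlap (-0.91 ± 0.11, adjusted p = 1.5e-06). CADPS2, which primes dense-core vesicles for release, had 325, 326 and 306 counts in siRNF40, against 675, 525 and 545 in siControl (-0.85 ± 0.12, adjusted p = 9.3e-06). LRBA fell to 6772, 7421 and 5760 counts in siRNF40, against 10187, 9433 and 10887 in siControl (-0.62 ± 0.092, adjusted p = 2e-05). AVL9, whose yeast counterpart acts late in secretion, fell by 0.70, the exocyst subunit gene EXOC6B by 0.58 and the TRAPP subunit gene TRAPPC9 by 0.64. MCTP1, a membrane protein with calcium-binding C2 domains, fell by 1.73 at a low level, with 36.7, 40.7 and 17.1 counts in siRNF40, against 82.8, 86.4 and 139 in siControl. The exception was SORCS2, a sorting receptor that binds neurotrophin precursors. It rose to 67.3, 75.8 and 72.6 counts in siRNF40, against 29.8, 27.5 and 23.8 in siControl (1.38 ± 0.28, adjusted p = 0.00043).

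Of 21 cytoskeletal and scaffold genes, 8 were lower in siRNF40 (38.1%) and 0 higher, against 23.6% and 21.7% of all genes. NAV2, a microtubule-binding neuron navigator, showed the largest of these decreases. It had 76.5, 120 and 90.7 counts in siRNF40, against 382, 410 and 440 in siControl (-2.11 ± 0.19, adjusted p = 3.4e-08). The groups were far apart, with no siRNF40 library near a siControl library. LPP, a focal adhesion protein, was the most abundant of the class and had 4421, 4252 and 3301 counts in siRNF40, against 5872, 5069 and 6252 in siControl (-0.53 ± 0.11, adjusted p = 0.00045). The postsynaptic scaffold gene SHANK2 fell by 0.45. Utrophin (UTRN) and the formin gene DIAPH2 were not called, with log2 fold changes of 0.12 and -0.11.

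Adhesion, matrix, polarity and guidance genes were mixed, with 6 of 19 lower (31.6%) and 3 higher (15.8%), where all genes had 23.6% and 21.7%. THSD4, a protein of fibrillin microfibrils, had 1351, 1215 and 1161 counts in siRNF40, against 2658, 2453 and 2908 in siControl (-1.10 ± 0.092, adjusted p = 1.6e-08). GPR98, a very large adhesion receptor, had 134, 151 and 120 counts in siRNF40, against 282, 294 and 278 in siControl (-1.08 ± 0.15, adjusted p = 9.7e-06). Both genes separated the groups fully. PARD3B, a polarity protein, was low and fell by 1.52, with 6.12, 11.1 and 24.5 counts in siRNF40 and 32, 46.5 and 32 in siControl. In the other direction, KAZN, which encodes the junction protein kazrin, had 646, 445 and 549 counts in siRNF40, against 303, 284 and 366 in siControl (0.77 ± 0.14, adjusted p = 0.00015). The tight junction scaffold gene MAGI1 rose by 0.40 and ASTN2, an astrotactin of neuronal migration, by 0.73. KAZN shares 3452 of its 13841 exon bases with another gene, so some of its reads may belong there.

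Among kinases, phosphatases and second messenger genes, 5 of 23 were lower (21.7%) and 4 higher (17.4%), close to the 23.6% and 21.7% of all genes. PTPRG, a receptor tyrosine phosphatase, had 1435, 1480 and 1136 counts in siRNF40, against 2519, 2358 and 2533 in siControl (-0.88 ± 0.09, adjusted p = 2.1e-07). PDE4B, which breaks down cyclic AMP, had 600, 720 and 770 counts in siRNF40, against 1153, 1334 and 1307 in siControl (-0.87 ± 0.096, adjusted p = 5.9e-07). PTPRM, a related phosphatase, fell by 0.70, and PLCB1, a phospholipase, by 0.47. The largest increase of any member was that of ALK, a receptor tyrosine kinase, with 76.5, 88.8 and 59.8 counts in siRNF40, against 12.1, 7.59 and 9.3 in siControl (2.84 ± 0.47, adjusted p = 6e-05). ALK averaged 15.3 over the 6 libraries other than siRNF40, so it met the level limit without the siRNF40 libraries. INPP4B, a phosphoinositide phosphatase, had 2034, 2354 and 2043 counts in siRNF40, against 1357, 1301 and 1409 in siControl (0.66 ± 0.099, adjusted p = 2.4e-05).

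The channel, receptor and transporter genes had 4 of 8 members lower (50%) and 0 higher, the 4 at low counts, beside 23.6% and 21.7% of all genes. SLC9A9, an endosomal sodium-proton exchanger, had 13.3, 12.9 and 5.34 counts in siRNF40, against 40.9, 43.7 and 37.2 in siControl (-1.94 ± 0.41, adjusted p = 0.00063). GRIK2, a kainate receptor subunit, had 23.5, 23.1 and 13.9 counts in siRNF40, against 36.4, 61.7 and 52.7 in siControl (-1.28 ± 0.33, adjusted p = 0.0034). KCNAB1, a potassium channel subunit, fell by 1.30. These 3 genes separated the groups at levels where a few reads more or less weigh on the fold change.

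Transcription factor and chromatin genes had 5 of 17 lower (29.4%) and 2 higher (11.8%). The shares were 23.6% and 21.7% over all genes and 28.3% and 24.2% over protein-coding genes, so the share lower was near the latter. NFIA, a nuclear factor I protein, had 355, 375 and 272 counts in siRNF40, against 576, 589 and 547 in siControl (-0.79 ± 0.12, adjusted p = 3.8e-05). FOXP1, a forkhead repressor, fell by 0.70 and SMYD3, a lysine methyltransferase, by 0.65. GLIS3, a zinc finger factor, went the other way with 760, 909 and 930 counts in siRNF40, against 423, 446 and 446 in siControl (0.98 ± 0.11, adjusted p = 7.7e-07). HIVEP3, another zinc finger factor, rose by 0.49. RUNX1 had a small change of -0.21 ± 0.068 (adjusted p = 0.018), and its call ended without siRNF40 replicate 1 (-0.19), siControl replicate 1 (-0.19) or siControl replicate 3 (-0.20), and under quantile normalization (-0.13).

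Of 13 genes of RNA, translation and protein turnover, 6 were lower (46.2%) and 2 higher (15.4%), beside 23.6% and 21.7% of all genes. TRHDE, a peptidase that degrades thyrotropin-releasing hormone, had 46.9, 42.5 and 54.4 counts in siRNF40, against 78.4, 96.8 and 87.8 in siControl (-0.86 ± 0.23, adjusted p = 0.0047). CDKAL1, a tRNA-modifying enzyme, fell by 0.72 and NAALADL2, of the peptidase family of its name, by 1.16. EIF2B5, the catalytic subunit of the exchange factor of translation initiation, rose to 1921, 1943 and 2146 counts in siRNF40, against 1353, 1293 and 1331 in siControl (0.59 ± 0.08, adjusted p = 6.5e-06). Its coding transcript spans under 100 kb in GENCODE 29, so its place among the long genes rests on the deposited annotation.

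Metabolic and genome maintenance enzymes had 3 of 15 lower (20%) and 1 higher (6.67%), so that the share lower was not above the 23.6% of all genes. DPYD, which degrades pyrimidines and the drug fluorouracil, had 46.9, 19.4 and 9.61 counts in siRNF40, against 109, 80.7 and 90.9 in siControl (-2.11 ± 0.42, adjusted p = 0.00038). The siRNF40 libraries were all lower but unequal among themselves. SUMF1, which activates sulfatases, fell by 0.65. GTPase regulators had 3 of 10 lower (30%) and 1 higher (10%), led by PSD3, an exchange factor of ARF6, which fell by 0.72. The class of other genes had 4 of 12 lower (33.3%) and 1 higher (8.33%). That 1 was DLEU1, with 1320, 1129 and 1166 counts in siRNF40, against 635, 603 and 690 in siControl (0.90 ± 0.099, adjusted p = 4.8e-07).

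Most of these calls did not depend on a particular library. Of the 69 calls in siRNF40 against siControl, 45 held without each library in turn and 24 ended without at least 1. Without overlap of libraries, 58 members were below siControl and 23 above, beside 26.8% and 26.4% of all genes. In the authors' deposited table of this comparison, 46 members were lower and 14 higher, beside 22.6% and 20.7% of all genes in that table, and 60 of the 69 limma calls stood there in the same direction.

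The 3′ UTR word GTCTTCA was tied more strongly to low log2 fold changes in siRNF40 than any other of 16174 words of 7 bases searched on the gene's strand, in a regression over 12821 protein-coding genes. It was chosen on this same contrast, so its values describe and test nothing. Of 139 members whose 3′ UTR was searched, 23 held it (16.5%), beside 12.4% of protein-coding genes. The sites below were read from GENCODE 29 on GRCh38, in the 3′ UTR of the chosen coding transcript, and are shown because the first 7 members had the largest called decreases among those with the word, together with KAZN and DENND1A, which hold the word and were higher. CDH4, a cadherin, and TENM3, a teneurin of cell guidance, had log2 fold changes of -1.54 and -0.73. The call of CDH4 ended without siRNF40 replicate 1 (-1.04) or siControl replicate 3 (-1.26), and with no filter on low values. That of TENM3 ended without siRNF40 replicate 1 (-0.52), siRNF40 replicate 3 (-0.60) or siControl replicate 2 (-0.50). The TENM3 call was also absent with no filter on low values, with only the 6 libraries compared and in the authors' deposited table. DENND1A (0.31), an exchange factor of RAB35, lost its call without siRNF40 replicate 1 (0.26) or siControl replicate 3 (0.27). Capitals mark the word, and 10 bases stand on each side of it, all 5′ to 3′ on the gene's strand.
NAV2, chr11:20119964-20119990, plus strand: agtctgctgtGTCTTCAacatactggt
SLC9A9, chr3:143266385-143266411, minus strand: gctgtgctggGTCTTCAgggcatttct
CDH4, chr20:61937170-61937196, plus strand: gaggcactctGTCTTCActtgaatttc
SYT1 first site, chr12:79450959-79450985, plus strand: atgaaagtttGTCTTCAcaaatatcaa
SYT1 second site, chr12:79451015-79451041, plus strand: ctcatgttcaGTCTTCAggatatcaca
PTPRG first site, chr3:62295657-62295683, plus strand: caatctgtgtGTCTTCAgcgagcttga
PTPRG second site, chr3:62295680-62295706, plus strand: ttgaaccaaaGTCTTCAtatcctgacc
TRHDE, chr12:72663927-72663953, plus strand: tacaaagaatGTCTTCAgatcaaagaa
TENM3, chr4:182802570-182802596, plus strand: acgtggactgGTCTTCActcgggcacc
KAZN, chr1:15115755-15115781, plus strand: gtgcctcgatGTCTTCAtctacgatac
DENND1A, chr9:123380836-123380862, minus strand: tctttcctgtGTCTTCAccccaaaact

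Of the 23 members with the word, 12 were called lower in siRNF40 and 2 higher, with a median log2 fold change of -0.45. Of the 116 searched members without it, 40 were lower and 10 higher, with a median of -0.21. Over all protein-coding genes searched, 54.3% of those with the word were lower (median -0.37) and 25.7% of those without it (median 0.02). Without the 23 members that hold it, 42 of 130 members were lower (32.3%) and the median was -0.14. The word is present in 16.7% of genes of 100 to 500 kb, 13% of those of 10 to 100 kb and 5.71% of those under 10 kb, whose median 3′ UTR lengths are 1567, 1011 and 468 bases. The part of the word in the lower level of long genes was not tested. The sequences of the siRNAs were not analysed here. The word most tied to lower levels in siTG2, GCGCCCT, was in 6 of 139 members (4.32%) and in 2.77% of protein-coding genes searched, and 2 of the 6 were lower and 2 higher in siTG2, beside 40% lower and 10.1% higher of the protein-coding genes that hold it.

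**Figure D2:**
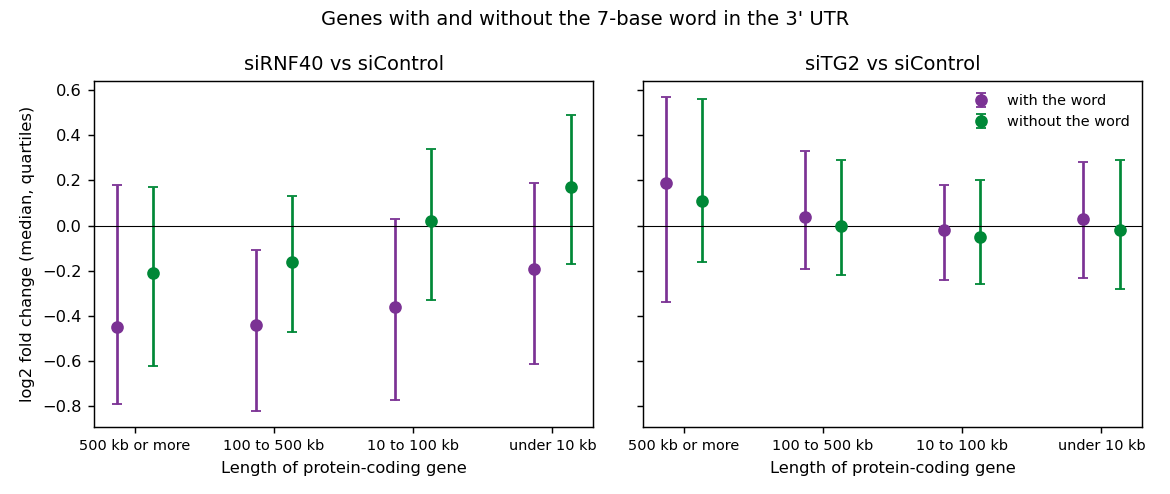
Log2 fold change against siControl of protein-coding genes with (purple) and without (green) the word GTCTTCA in the 3′ UTR, by gene length. Points are medians and bars run from the 25th to the 75th percentile across genes, so they show the spread of genes and not of libraries. In siRNF40 the medians of long genes were -0.45 with and -0.21 without the word.

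In siTG2 the long genes moved in both directions, with more higher than lower calls. Against siControl, 32 members were called higher (20.9%) and 21 lower (13.7%), while of all genes 12.8% were called higher and 18.5% lower. Of protein-coding genes alone, 14.6% were higher and 22.5% lower. The median log2 fold change was 0.10 in members and -0.01 over all genes. Protein-coding genes of 100 to 500 kb were called higher in 18% and lower in 21.6%. Those of 400 to 500 kb, just below the limit, were called higher in 22.2% and lower in 24.1%, with a median of 0.05. The raised share of higher calls was therefore not particular to the 500 kb limit, while more higher than lower calls were not seen just below it. Without siControl replicate 1, only 13.7% of members were called higher. With the libraries scaled to equal totals, 48 members were higher and 10 lower, and the median was 0.25, but under that scaling the median of all genes moved to 0.13. The share of all genes called is not given here for either setting, so these counts do not set members apart from other genes. Of 53 calls, 31 held without each library in turn. Without overlap of libraries, 45 members were above and 32 below siControl, beside 20.5% and 26.1% of all genes. In the authors' deposited table, 33 members were higher and 21 lower, beside 12.6% and 18.3% of all genes in that table.

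The direction in siTG2 went with the level of the gene. Of 33 members averaging 10 to 50 normalized counts, 7 were higher and 0 lower, with a median of 0.59. The level was averaged over all groups, and 4 of these 33, CACNA1C, CNTNAP2, MAPK10 and SPOCK3, had a mean under 10 over the 6 siRNF40 and siControl libraries. They passed the limit through siTG2, and 3 of them are among the 7 higher calls. For the other 29, 4 were higher and 0 lower, with a median of 0.37. Of 39 averaging 50 to 200, 11 were higher and 0 lower, with a median of 0.41. Of 48 averaging 200 to 1000, 9 were higher and 8 lower (median -0.09), and of 33 averaging 1000 or more, 5 were higher and 13 lower (median -0.01). The medians of protein-coding genes at the same levels were 0.47, 0.24, 0.01 and -0.12. From low to high level, 21.2%, 28.2%, 18.8% and 15.2% of members were higher, beside 12.7%, 22.7%, 18.7% and 10.1% of protein-coding genes. The shares lower were 0%, 0%, 16.7% and 39.4% of members and 1.27%, 4.52%, 16.8% and 36.3% of protein-coding genes. The change of direction with level was therefore not particular to long genes. More genes were detected in siTG2, with 27123 to 27602 genes holding a read, beside 25162 to 25468 in siControl. Long genes below the level limit summed to 255 to 296 normalized counts in siTG2 and 129 to 162 in siControl. Markers of leukocytes and red cells summed to 18.6 to 49 in siTG2 and 3.8 to 14.5 in siControl, with none of 6 at a mean of 10 and CD3E at 0. Muscle markers summed to 151 to 181 in siTG2 and 74 to 98.1 in siControl, with 2 of 5, CKM and DES, at a mean of 10 and MYOD1 at 0. The part of this wider low-level signal in the higher calls of long genes was not tested.

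**Figure D3:**
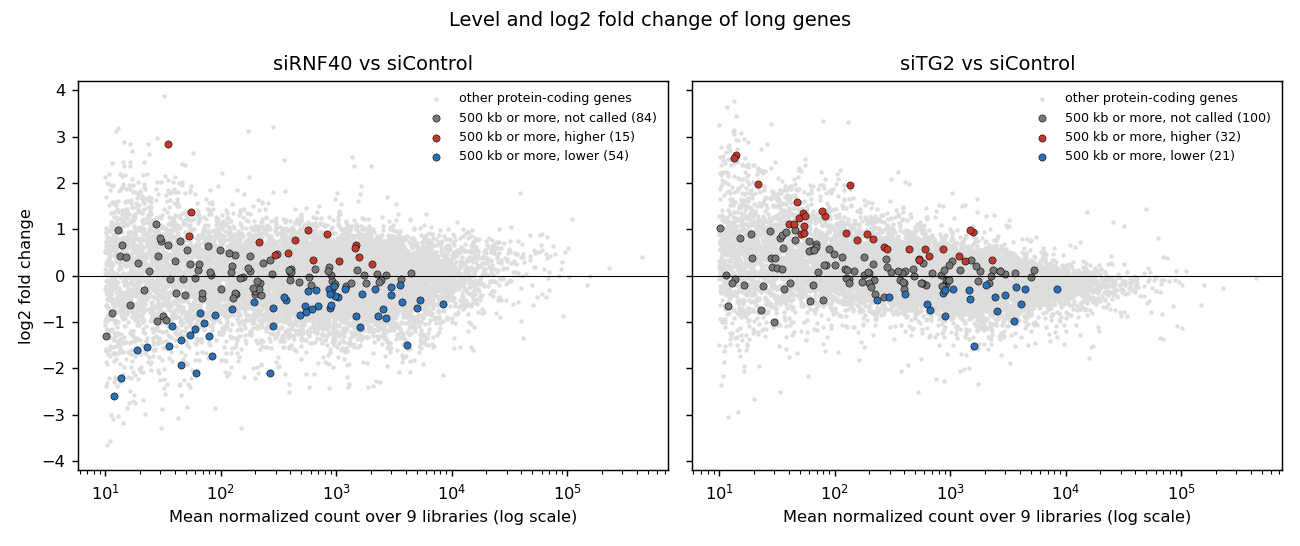
Log2 fold change against siControl (vertical axis) by mean normalized count over the 9 libraries (horizontal axis, log scale) for genes of 500 kb or more, coloured by limma call, over other protein-coding genes in pale grey. In siRNF40, 54 long genes were lower, spread over all levels. In siTG2, 7 of the 32 higher genes averaged under 50 and 11 between 50 and 200, and the 21 lower ones were all above 200.

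Adhesion genes had 7 of 19 members higher in siTG2 (36.8%) and 1 lower (5.26%), beside 12.8% and 18.5% of all genes. LRP1B, a giant receptor of the LDL receptor family that lies in a fragile site, had 284, 268 and 293 counts in siTG2, against 58.5, 94.9 and 66.1 in siControl (1.96 ± 0.26, adjusted p = 1.1e-05). Its siTG2 libraries lay close together and far above the rest. MAGI1 rose to 2308, 2121 and 2036 counts in siTG2, against 1139, 1007 and 1255 in siControl (0.93 ± 0.09, adjusted p = 2.5e-07), at a high level. GPR98 had 491, 373 and 420 counts in siTG2, against 282, 294 and 278 in siControl (0.58 ± 0.15, adjusted p = 0.0063), and KAZN rose by 0.57. The member that fell was THSD4, with 1031, 859 and 902 counts in siTG2, against 2658, 2453 and 2908 in siControl (-1.52 ± 0.092, adjusted p = 5.3e-10), the largest decrease of any member in siTG2.

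Signalling genes had 6 of 23 higher (26.1%) and 4 lower (17.4%), where all genes had 12.8% and 18.5%. PDE4B had 2576, 2392 and 2581 counts in siTG2, against 1153, 1334 and 1307 in siControl (0.99 ± 0.096, adjusted p = 2.4e-07), with no overlap. CDK14, a cyclin-dependent kinase, rose by 0.57, RGS6, a regulator of G protein signalling, by 0.80 and PTPRG by 0.33. INPP4B had 1075, 810 and 1009 counts in siTG2, against 1357, 1301 and 1409 in siControl (-0.50 ± 0.099, adjusted p = 0.00073). The changes of PTPRM (-0.38) and PRKG1, the cyclic GMP-dependent kinase (1.36), were also called, that of PTPRM not with equal totals (-0.24).

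Transcription factor genes had 5 of 17 higher (29.4%) and 1 lower (5.88%), against 12.8% and 18.5% of all genes. The lower one was RUNX1, which had 2314, 2151 and 2431 counts in siTG2, against 4616, 4339 and 4512 in siControl (-0.97 ± 0.068, adjusted p = 3.7e-09). The histone deacetylase gene HDAC9 rose by 0.61. SOX6 had 122, 130 and 144 counts in siTG2, against 24.3, 68.3 and 88.8 in siControl (1.29 ± 0.38, adjusted p = 0.014), and its call ended without siTG2 replicate 3 (1.23) or siControl replicate 1 (0.75). The siControl replicate 1 value was the lowest of the 9.

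Vesicle traffic genes had 5 of 15 lower (33.3%) and 2 higher (13.3%) in siTG2, beside 18.5% lower and 12.8% higher of all genes. SYT1 had 4051, 3638 and 4246 counts in siTG2, against 6031, 5740 and 6453 in siControl (-0.61 ± 0.078, adjusted p = 7e-06). TRAPPC9 fell to 738, 646 and 626 counts in siTG2, against 1195, 1182 and 1296 in siControl (-0.87 ± 0.1, adjusted p = 3e-06). SORCS2 had 67.8, 69.5 and 63.5 counts in siTG2, against 29.8, 27.5 and 23.8 in siControl (1.28 ± 0.28, adjusted p = 0.0015), and neurobeachin (NBEA) rose by 0.57. The small decreases of LRBA and EXOC6B were less firm. LRBA changed by -0.29 (adjusted p = 0.022), and its call ended without siTG2 replicate 2 (-0.19), siControl replicate 1 (-0.29) or siControl replicate 3 (-0.24), under quantile normalization (-0.09) and with equal totals (-0.15). EXOC6B changed by -0.24 (adjusted p = 0.027 in limma). Its call ended without siTG2 replicate 2 (-0.18), siTG2 replicate 3 (-0.26), siControl replicate 1 (-0.21) or siControl replicate 3 (-0.22). The call was also absent with no filter on low values, under quantile normalization (-0.08) and with equal totals (-0.09).

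Of all genes, 18.5% were lower and 12.8% higher in siTG2. Among the remaining classes, GTPase regulators had 4 of 10 lower (40%) and 3 higher (30%), metabolic enzymes 3 of 15 lower (20%) and 2 higher (13.3%), and RNA and turnover genes 2 of 13 lower (15.4%) and 0 higher. Cytoskeletal genes had 2 of 21 higher (9.52%) and 0 lower, channels 2 of 8 higher (25%) and 0 lower, and other genes 3 of 12 higher (25%) and 1 lower (8.33%). The shares of metabolic enzymes lay near those of all genes. PSD3 fell by 0.76, TBC1D5, which inactivates RAB7, by 0.41, ADK by 0.47 and KIAA1217 by 0.74. EIF2B5 had 1046, 1138 and 1015 counts in siTG2, against 1353, 1293 and 1331 in siControl (-0.32 ± 0.08, adjusted p = 0.0053), a call that ended under quantile normalization and with equal totals. ST6GALNAC3, a sialyltransferase, rose by 1.40 and EGLN3, an oxygen-sensing hydroxylase, by 0.89. ATRNL1 rose by 1.59, with 87.6, 85.4 and 79.2 counts in siTG2, against 22.1, 28.5 and 32 in siControl.

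**Figure D4:**
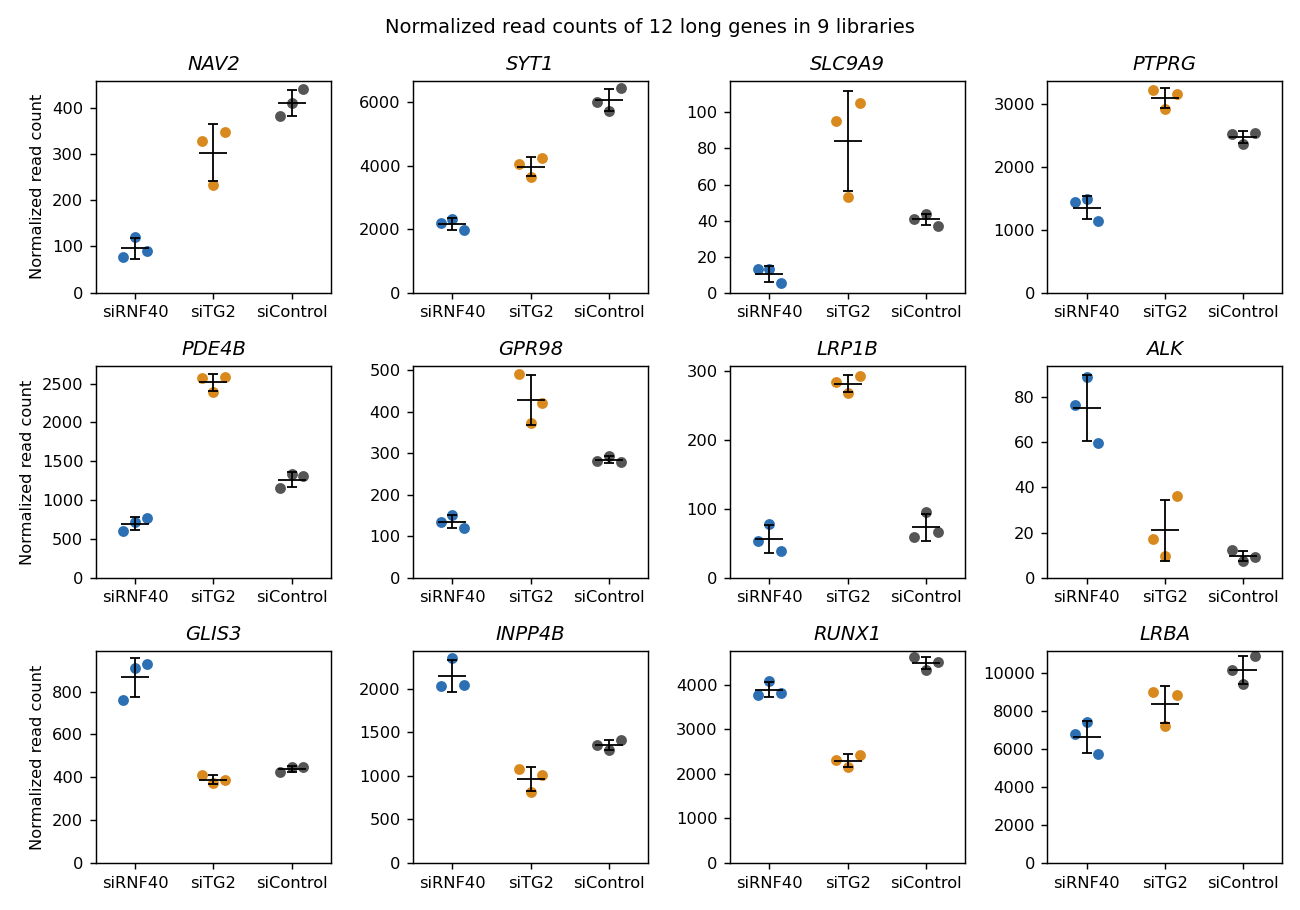
Normalized read counts of 12 long genes in each library of siRNF40, siTG2 and siControl. Points are libraries, black bars the mean and SD of 3 libraries, and each panel has its own vertical axis from 0. PDE4B, PTPRG and GPR98 were lowest in siRNF40 and highest in siTG2, while INPP4B had the reverse order.

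Set directly against each other, the knockdowns differed in 90 of the 153 long genes. In siRNF40 relative to siTG2, 67 members were lower (43.8%) and 23 higher (15%), beside 26.6% of all genes in each direction. Of protein-coding genes alone, 31% were lower and 30.1% higher. The 67 lower calls include CACNA1C, CNTNAP2 and SPOCK3, which had a mean under 10 over the siRNF40 and siControl libraries. These passed the level limit through siTG2, so their lower calls are partly set by the rule. The median difference was -0.33 on the log2 scale in members and -0.01 over all genes. Protein-coding genes of 100 to 500 kb were called lower in 44.9% and higher in 19.9%, with a median of -0.23. The lowest of the 3 group means was that of siRNF40 in 83 members, and the highest that of siTG2 in 77. For all genes tested the shares were 38.7% and 34.3%. Of the 90 calls, 70 held without each library in turn. Without overlap of libraries, siRNF40 was below siTG2 in 68 members and above it in 24, beside 29.3% and 29% of all genes. Both knockdowns share the siControl libraries, so the values of all groups are given side by side.

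Wide differences were seen at SLC9A9, with 13.3, 12.9 and 5.34 counts in siRNF40 and 95.2, 52.8 and 105 in siTG2 (-2.92 ± 0.41, adjusted p = 6e-06), and at LRP1B, with 53, 78.6 and 38.4 in siRNF40 and 284, 268 and 293 in siTG2 (-2.35 ± 0.26, adjusted p = 3.4e-07). GRIK2 had 23.5, 23.1 and 13.9 counts in siRNF40, 96.1, 103 and 83.1 in siTG2 and 36.4, 61.7 and 52.7 in siControl, so that all siRNF40 libraries were below and all siTG2 libraries above siControl. The direct difference was -2.20 ± 0.33 (adjusted p = 1.3e-05). The same order held for PDE4B (direct difference -1.86 ± 0.096, adjusted p = 1.3e-11), GPR98 (-1.66 ± 0.15, adjusted p = 2.8e-08) and PTPRG (-1.21 ± 0.09, adjusted p = 1.9e-09). In the opposite direction, RUNX1 was higher in siRNF40 than in siTG2 by 0.76 ± 0.068 (adjusted p = 2.2e-08), GLIS3 by 1.15 and DLEU1 by 0.90. GMDS, which starts the synthesis of GDP-fucose, had 711, 929 and 819 counts in siRNF40, 371, 458 and 435 in siTG2 and 647, 637 and 653 in siControl, with a direct difference of 0.96 ± 0.12 (adjusted p = 1.2e-06). SYT1 was below siControl in both knockdowns and lower in siRNF40 than in siTG2, with a direct difference of -0.87 ± 0.078 (adjusted p = 2.1e-08), whereas SORCS2 was above siControl in both, with a direct difference of 0.10 ± 0.28 (adjusted p = 0.79).

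Of the members, 21 are genes of known common fragile sites. In siRNF40 against siControl, 5 were lower (23.8%) and 0 higher, beside 23.6% and 21.7% of all genes and 35.3% and 9.8% of members. Their median log2 fold change was -0.39, with 16 of the 21 negative, beside a median of -0.18 in all members. The 5 lower calls include CTNNA3, which passed the level limit through siControl. In siTG2 against siControl, 1 was lower (4.76%) and 5 higher (23.8%), beside 18.5% and 12.8% of all genes and 13.7% and 20.9% of members. In siRNF40 against siTG2, 10 were lower (47.6%) and 1 higher (4.76%), beside 26.6% of all genes in each direction and 43.8% and 15% of members. The median was 0.10 in siTG2 against siControl and -0.80 in siRNF40 against siTG2, beside 0.10 and -0.33 in members. The 10 lower calls include CNTNAP2, which passed the level limit through siTG2, and CTNNA3. The libraries of the 2 knockdowns overlapped for CTNNA3 (-1.95, adjusted p = 0.042 in limma). Its direct call ended in 12 of 18 alternatives, among them leaving out 7 of the 9 libraries, each in turn. The 1 exception in the last pair was FHIT, a nucleotide hydrolase of the FRA3B site, with 329, 251 and 296 counts in siRNF40, 154, 168 and 179 in siTG2 and 250, 206 and 267 in siControl (0.80 ± 0.16, adjusted p = 0.00035). MACROD2, a hydrolase of ADP-ribose, had 25.5, 58.3 and 54.4 counts in siRNF40, 112, 106 and 80.1 in siTG2 and 58.5, 52.2 and 73.3 in siControl. Its direct difference was -1.16 (adjusted p = 0.0043), and neither knockdown differed from siControl at the threshold. WWOX, an oxidoreductase gene, was called in no contrast, with 213, 181 and 101 counts in siRNF40, 150, 257 and 262 in siTG2 and 250, 171 and 208 in siControl. CNTNAP2, the longest member, had 0 to 7.4 counts in siRNF40, 14.1 to 20.5 in siTG2 and 2.07 to 15.2 in siControl, so its direct difference of -2.34 rested on few reads. Its call ended without siRNF40 replicate 3 (-1.44), siTG2 replicate 1 (-2.37) or siTG2 replicate 3 (-2.20). The call was also absent with no filter on low values and under quantile normalization.

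Many long genes showed no call. In 60 members (39.2%) neither knockdown passed the test against siControl, beside 41.3% of all genes tested and 32.4% of protein-coding genes. In no contrast were 43 members called (28.1%), beside 33.8% of all genes and 25.3% of protein-coding genes. Among them were abundant genes whose precision was high. DOCK1, an activator of RAC, had 3700, 3523 and 3215 counts in siRNF40, 4019, 3560 and 3841 in siTG2 and 3522, 3759 and 3759 in siControl. PARD3, a polarity protein, had 2416, 2838 and 2768 counts in siRNF40, 2772, 2727 and 3049 in siTG2 and 2706, 2664 and 2587 in siControl, with log2 fold changes of 0.01 in siRNF40 and 0.10 in siTG2. SBF2 and PRKCA, protein kinase C alpha, changed by 0.04 and 0.01 in siRNF40. The coefficient of variation between replicates had a median of 15.4% in siRNF40, 10.4% in siTG2 and 11.7% in siControl for members. For protein-coding genes it was 9.91% in siRNF40, 8.11% in siTG2 and 6.9% in siControl, so smaller changes of long genes were harder to detect.

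Of 46 tested genes of the elongation, termination and topoisomerase machinery, 14 were lower (30.4%) and 11 higher (23.9%) in siRNF40, near the 28.3% and 24.2% of protein-coding genes. In siTG2, 13 were lower (28.3%) and 5 higher (10.9%), beside 22.5% and 14.6%. Genes of the same complex or function differed in direction. TOP2A, a topoisomerase of dividing cells, had 3467, 3847 and 3245 counts in siRNF40, against 8315, 8109 and 8430 in siControl (-1.24 ± 0.068, adjusted p = 6.9e-11). The other topoisomerase genes TOP1 (-0.07) and TOP2B (0.12) were not called in siRNF40. CDC73, of the PAF1 complex that guides H2B ubiquitination, had 1663, 1632 and 1293 counts in siRNF40, against 3068, 2819 and 2970 in siControl (-0.96 ± 0.093, adjusted p = 1.1e-07). Of its partners, CTR9 was also called lower (-0.22, adjusted p = 0.022 in limma), a call whose dependence on single libraries is not given here. RTF1 (-0.01) and LEO1 (-0.15) were not called. PAF1 was called higher (0.25, adjusted p = 0.013), though not without siRNF40 replicate 3 (0.16) or siControl replicate 1 (0.23). The U1 snRNP genes SNRNP70 (0.70), SNRPC (0.39) and SNRPA (0.27) were higher in siRNF40, the last of them not without siRNF40 replicate 3 (0.18) or siControl replicate 1 (0.25). UBE2A, an enzyme that hands ubiquitin to the RNF40 ligase, fell by 0.70, while UBE2B, listed with it, was not called (-0.20). DOT1L, the H3K79 methyltransferase, rose by 0.61. In siTG2, NELFA, of the pausing factor NELF, had 524, 502 and 453 counts, against 1080, 1038 and 930 in siControl (-1.04 ± 0.11, adjusted p = 5.4e-07). The other NELF genes NELFB (-0.14), NELFCD (0.04) and NELFE (0.13) were not called in siTG2. TOP1 (-0.45) and TOP2A (-0.29) were lower and TOP2B (0.45) higher in siTG2. The TOP2A call ended under quantile normalization and with equal totals. DOT1L fell by 0.87 in siTG2. The part of these genes in the level of long genes was not tested.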

How the data were processed

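Per the submitters' processing notes, reads were processed with Trim Galore 0.4.1, STAR 2.7.0, HTSeq 0.12.4 and DESeq2; builds hg19 and hg38 are named without a role. The authors deposited counts divided by size factors, a signal whose low values gave whole reads (100% of values within 0.001), and comparison tables with log2 fold changes, p-values and test statistic scores. Columns headed NC were taken as siControl, since the tables' siControl means are equal to theirs. MARCHF1 was named by gene ID, its symbol having become a date. The strand setting was not given in the sources used here, and 65 members share exon bases with another gene, 60 of them on the other strand.

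The deposited signal was tested as log2(value + 1) with limma 3.58.1 (R 4.3.3) with a mean-variance trend, all 9 libraries, 3 group means, a minimum mean of 10 (17663 genes) and Benjamini-Hochberg adjustment. Fold changes are on that scale and understate those of low genes. The method was tested on simulated data. Alternatives used edgeR 4.0.16 and DESeq2 1.42.0 on recovered reads, other scalings, filters, pseudocounts and lengths, a replicate block and leaving out each library. GENCODE 29 gave exons and 3′ UTRs (at least 50 bases). Python 3.11.15, numpy 2.4.6, scipy 1.17.1, pandas 2.3.3 and matplotlib 3.10.9 were used.

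The members and lists were chosen with earlier results of these data known, and roles were completed by hand after values were seen. Named were both targets, per contrast the 12 largest called increases and 12 largest decreases without overlap and with a mean of at least 20, the 8 highest and 8 longest members, up to 4 highest and 2 uncalled per role, members called in opposite directions, the genes at the rule's edges, up to 6 machinery genes and members with the word; further members and machinery genes were named after their values were seen. Marker lists are printed by their sums. The neuron and glia list, which holds the members SYT1 and RBFOX3, summed to 5091 to 5572 in siRNF40, 5404 to 6281 in siTG2 and 8317 to 9114 in siControl, and the fibroblast list to 1371 to 1705 in siRNF40, 1022 to 1173 in siTG2 and 822 to 997 in siControl.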

Additional observations from a re-analysis of the deposited data

Results flagged for a closer look

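The effects of the knockdowns differed between siRNF40 and siTG2 for 15 long genes, each called in opposite directions against siControl and called again when siRNF40 was tested directly against siTG2. Both comparisons share the siControl libraries, so the direct log2 difference is given here. It was negative for GRIK2 (-2.20), PDE4B (-1.86), GPR98 (-1.66), TENM3 (-1.65), PTPRG (-1.21), NFIA (-1.13), SMYD3 (-1.01), NBEA (-0.86) and RABGAP1L (-0.70). It was positive for INPP4B (1.16), GMDS (0.96), EIF2B5 (0.91), MARCHF1 (0.91), DENND1A (0.59) and STK3 (0.45). The direct call held without each library for these 15 genes, but at least 1 call against siControl ended without some library for GRIK2, TENM3, NFIA, SMYD3, NBEA, RABGAP1L, GMDS, MARCHF1, DENND1A and STK3. Their cause was not tested.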

How the results depend on the processing

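The shares of long genes called and their medians kept their direction under all alternatives run. The shares of all genes called under the alternatives are not given in this section, so these shares do not set members apart from other genes. Leaving out each library gave, for siRNF40 against siControl, 7.84% to 11.1% higher, 26.1% to 35.3% lower and medians of -0.24 to -0.12. For siTG2 against siControl it gave 13.7% to 24.2% higher, 9.15% to 14.4% lower and 0.09 to 0.16, and for siRNF40 against siTG2 13.1% to 17.0% higher, 37.3% to 44.4% lower and -0.41 to -0.27. Scaling to equal totals gave 6.54% lower and a median of 0.25 in siTG2, and -0.50 in siRNF40 against siTG2, while the medians of all genes moved to 0.13 and -0.19. With a limit of 400 kb the siRNF40 median was -0.27. With 1000 kb, 4.76% were higher in siRNF40 (median -0.37) and 9.52% in siRNF40 against siTG2 (median -0.45), over 21 genes. The cause was not tested. With the replicate number as a block, 9.15% were higher and 33.3% lower in siRNF40, 19.6% and 12.4% in siTG2, and 15% and 43.8% in siRNF40 against siTG2. In their deviations from the group means, same-numbered libraries correlated at -0.234 to 0.211 and differently numbered ones at -0.212 to 0.192. The numbers thus showed no sign of pairing, but with 3 libraries in each group these correlations cannot exclude it. Limits to a siControl mean of 10, to the span or coding transcript in GENCODE 29, or to members without the word or without shared exon bases were chosen after seeing the data and moved no share by 1.5 times. Of 7498 alternatives for single genes, 6990 kept direction and side of the threshold, 256 lost the call, 125 gained one, 126 uncalled values changed sign and 1 called value changed sign, TOP1 in siRNF40 against siTG2 under quantile normalization (-0.02, not called). Members with few reads are limited by counting error, so changes there may be missed.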
